A study of Mus musculus with 4 samples.

Results

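The nuclear-encoded respiratory chain genes are described here in 4 RNA-seq libraries of mouse T-helper 2 (Th2) cells. Members were the protein-coding GENCODE genes outside the mitochondrial chromosome whose symbol starts with Nduf and a, b, c, s or v plus a digit, with Cox and a digit from 4 to 8, with Uqcr, or with Atp5. The rule found 80 of the 50600 listed genes, among 21751 protein-coding nuclear genes. It took 37 genes of complex I, 8 of complex III, 18 of complex IV and 17 of complex V. Of the 80 members, 23 had exon bases in common with a gene transcribed from the opposite strand (an opposite exon), and 57 had none. The name rule leaves out complex II, cytochrome c and a few subunits with other names, and it takes in Atp5s, a coupling factor gene that is not a classical subunit, and Ndufa4, which is now placed in complex IV.

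All 4 libraries belonged to 1 group, primary T-helper 2 cells of strain C57BL/6NJ, and are named replicates 1 to 4 after the labels. The labels give no treatment, no genotype, no sex and no age, and link a protocol for differentiation of CD4 T cells. All 4 carry the same donor identifier, so a p-value reflects only the scatter among these samples, part of which may be technical. With 1 group there is no contrast between conditions, and each result is either a level within libraries or the variation between replicates.

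The respiratory chain sits in the inner mitochondrial membrane. Complex I takes electrons from NADH and complex II from succinate, complex III passes them on to cytochrome c, and complex IV hands them to oxygen. Complexes I, III and IV pump protons, and complex V, the ATP synthase, uses the proton gradient to make ATP. Most subunits are encoded in the nucleus and imported, while the core of complexes I, III, IV and V also needs proteins made from the mitochondrial genome. In T cells, activation and growth are known to raise the demand on this machinery.

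Totals were 1688658, 1705096, 2222583 and 1881293 counts in replicates 1, 2, 3 and 4, and members had a median of 7 to 12 counts. Counts were made with strand option 1, and genes with an exon on the other strand held 90.1 to 93.3% of the counts of a library. On the mitochondrial genome, the minus-strand gene mt-Nd6 had 109408 counts over the 4 libraries and the 12 plus-strand mRNAs had 12367. All levels below are therefore levels on the counted strand, and whether that is the strand of the members' transcripts was not tested. Levels are given as TPM, counts per exonic base scaled to the same sum in every library. The entry CT010467.1 took 1.29, 5.05, 9.40 and 1.62% of the counts in replicates 1 to 4, the most in replicate 3 and the next most in replicate 2. Each of 16 T cell identity genes was counted in every library. Of 12 Th2 genes 8 did, among them Il4 at 7.43 ± 2.30 TPM and Gata3 at 3.83 ± 0.515 TPM (SD, n = 4), while Il5, Il13, Il1rl1 and Maf had no count in any library. Of the markers of other cell types, 2 of 11 for other T cell lineages, 2 of 6 for B cells, 2 of 7 for myeloid cells and 2 of 5 for erythroid cells had counts in every library, and the defining genes Lyz2 and Hba-a1 had none. Csf1r of the myeloid list was at 155 ± 14.5 TPM and Foxp3 of the other T cell lineages at 149.9 ± 6.18 TPM, far above Il4 and Gata3. The highest Th2 genes lay between, Ptgdr2 at 57.3 ± 9.10, Junb at 44.5 ± 3.51 and Irf4 at 25.0 ± 6.67 TPM. Whether overlap with a gene on the other strand bears on these marker levels was not tested. Csf1r, Foxp3, Ptgdr2, Junb and Gata3 each have an opposite exon. The B cell genes Cd79a and Ighm, with none, were at 8.09 ± 2.20 and 6.403 ± 3.78 TPM, near Il4.

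Most respiratory chain genes were detected on the counted strand, at low levels there. Whether these are the levels of their transcripts was not tested. A count in every library was found for 66 of the 80 members, 82.5%, against 39.0% of all protein-coding nuclear genes. Detection was complete for complex III, where all 8 genes had counts in every library, and lowest for complex IV, with 11 of 18. Complex I had 33 of 37 and complex V 14 of 17. The median member level was 7.32, 5.62, 3.50 and 7.44 TPM in replicates 1, 2, 3 and 4, a mean of 5.97 ± 1.85 TPM (SD, n = 4). Replicate 3 was the lowest and replicates 1 and 4 were close together. The median of all protein-coding nuclear genes was 0 TPM in each library. In 57 members the level was 1 TPM or more in every library, and the mean reached 10 TPM in 22 members and 20 TPM in 10. Without replicate 3, the number of members with counts in every library rose to 71.

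**Figure D1:**
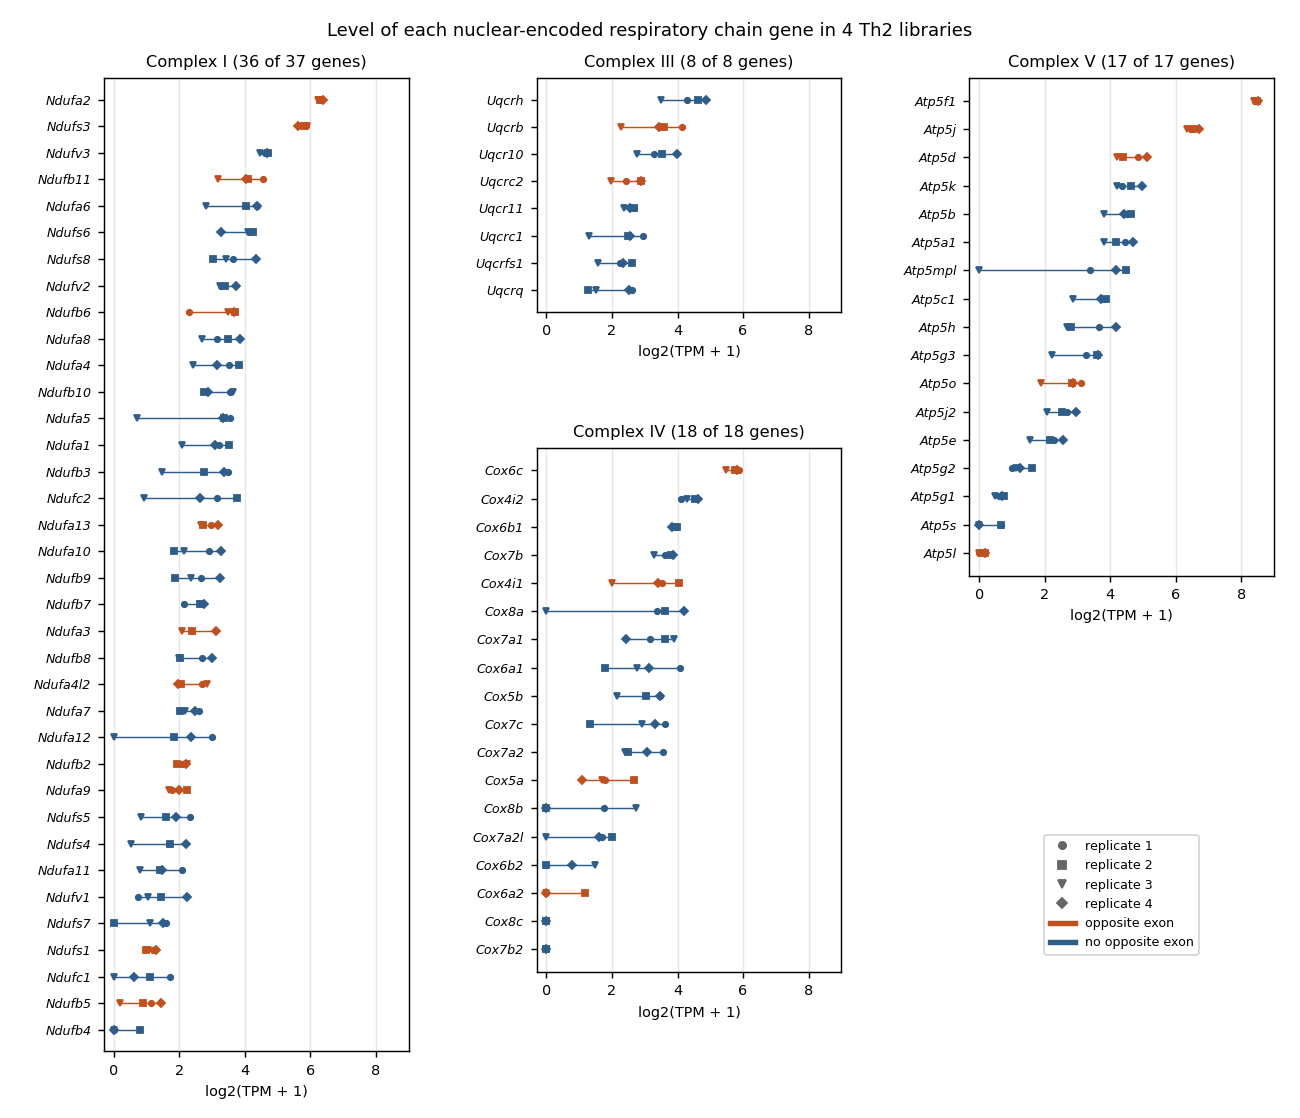
Each row is a member, grouped by complex and ordered by mean level. The x axis is log2(TPM + 1), the marker shape gives the library, and orange marks genes with an exon on the other strand. Atp5f1 and Atp5j lie far to the right of the other genes of complex V, Cox7b2 and Cox8c stay at 0, and the triangle of replicate 3 is often at the left end of a row. The plot shows 79 of the 80 members.

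Few genes carried most of the counts. Members together had 3482, 3388, 3756 and 4084 counts in replicates 1 to 4. These are shares of 0.206% (95% Wilson interval 0.199 to 0.213), 0.199% (0.192 to 0.205), 0.169% (0.164 to 0.174) and 0.217% (0.211 to 0.224) of the libraries, and the intervals cover counting error only. Complex V held 69.9 ± 1.85% of the member counts, complex I 17.2 ± 0.53%, complex IV 10.1 ± 0.762% and complex III 2.87 ± 0.819% (SD, n = 4). Atp5f1, the gene for subunit b of the ATP synthase stalk, alone took from 47.3 to 54.8% of the member counts. The 23 members with an opposite exon, Atp5f1 among them, took from 75.7 to 82.8%. Over all genes, those with an opposite exon took from 90.1 to 93.3% of a library, a larger part than among members. Protein-coding nuclear genes took a mean of 52.0% of the counts, and those of them with an opposite exon 44.9%.

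The promoter windows of 4 members are shown because their first exons or promoters overlap exons of a gene that runs the other way, and because these 4 pairs span the range from a much higher member to a much higher partner. Each window runs from 250 bases before to 50 bases after a start site in RefSeq on GRCm38.p6, on the minus strand, 5′ to 3′. The windows are chr16:84834927-84835226 for Atp5j, chr2:90904672-90904971 for Ndufs3, chr9:44920693-44920992 for Atp5l and chr3:105959214-105959513 for Atp5f1. Capitals mark exact matches, on either strand, to core motifs of NRF1 (GCGCATGCG), ETS factors such as GABP (CCGGAAG), YY1 (AAGATGGCG) and CRE (TGACGTCA).
Atp5j: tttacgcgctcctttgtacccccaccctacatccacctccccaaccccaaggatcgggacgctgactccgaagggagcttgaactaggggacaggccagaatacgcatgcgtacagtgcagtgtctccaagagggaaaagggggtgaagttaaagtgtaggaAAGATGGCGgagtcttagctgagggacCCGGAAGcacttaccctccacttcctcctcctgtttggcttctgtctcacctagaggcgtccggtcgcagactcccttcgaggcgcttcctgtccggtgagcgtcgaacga
Ndufs3: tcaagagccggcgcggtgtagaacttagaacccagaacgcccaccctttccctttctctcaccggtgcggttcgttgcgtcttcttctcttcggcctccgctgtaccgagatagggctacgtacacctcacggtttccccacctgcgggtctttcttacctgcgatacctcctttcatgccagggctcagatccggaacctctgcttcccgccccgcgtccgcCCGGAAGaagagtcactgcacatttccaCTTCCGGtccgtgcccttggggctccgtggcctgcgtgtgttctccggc
Atp5l: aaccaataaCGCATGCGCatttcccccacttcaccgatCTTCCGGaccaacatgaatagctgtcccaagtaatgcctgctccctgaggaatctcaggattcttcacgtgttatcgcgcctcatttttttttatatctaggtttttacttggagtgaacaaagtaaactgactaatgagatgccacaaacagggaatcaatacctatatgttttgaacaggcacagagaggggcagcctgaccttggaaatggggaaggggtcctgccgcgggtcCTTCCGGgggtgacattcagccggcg
Atp5f1: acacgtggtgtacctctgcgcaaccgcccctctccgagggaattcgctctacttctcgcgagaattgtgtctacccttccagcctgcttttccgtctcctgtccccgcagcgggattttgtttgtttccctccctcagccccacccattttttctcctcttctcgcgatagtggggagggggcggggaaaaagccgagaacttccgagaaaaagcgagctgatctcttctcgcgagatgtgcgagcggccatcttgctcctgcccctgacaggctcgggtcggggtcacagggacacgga
In Atp5j, which has 2 windows in the table, YY1 letters start at base 163 and ETS letters at base 190 of the window shown, and 200 of its 300 bases lie in exons of Gabpa on the other strand. Ndufs3 has ETS letters at bases 224 and 252, and 170 bases lie in exons of Kbtbd4. Atp5l has NRF1 letters at base 10 and ETS letters at bases 39 and 275, and 59 bases lie in exons of Gm30934. The Atp5f1 window holds none of the 4 motifs, and 145 of its bases lie in exons of Wdr77.

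RefSeq windows were found for 65 of the 80 members, 70 windows in all. The NRF1 letters, for a factor known to drive many nuclear genes of mitochondria, stood in 8 windows or 11.4%, against 1.75% of all 32851 windows in the table. ETS letters stood in 14 windows or 20% against 8.86%, YY1 letters in 7 or 10% against 1.403%, and CRE letters in 4 or 5.71% against 1.79%. At least 1 of the motifs was in 38.6% of member windows and 12.7% of all windows. The ETS and YY1 letters can overlap, and a match is a description of letters only. The 27 members with a match had a median of 5.06 TPM, and the 38 with a window and no match had 6.74 TPM.

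In complex I, all 37 genes had a count in at least 1 library, with a median of 5.29 ± 1.501 TPM (SD, n = 4). The highest was Ndufa2, an accessory subunit of the matrix arm, with 52, 51, 64 and 60 counts in replicates 1, 2, 3 and 4, or 78.0 ± 2.86 TPM (SD, n = 4). Its level was close to even over the 4 libraries. Ndufs3, a core subunit of the arm that reaches into the matrix (chr2:90894634-90904827), had 145, 138, 192 and 136 counts, or 54.9 ± 4.47 TPM. Replicate 3 had the most counts and the largest total. On the TPM scale it was also the highest, at 59.0 TPM, and replicate 4 was lowest at 48.7 TPM. Both genes have an exon on the other strand, Ndufa2 opposite Tmco6 by 60 bases and Ndufs3 opposite Kbtbd4 by 88 bases. Among genes with no opposite exon, Ndufv3, a small subunit beside the NADH-binding module, led with 69, 72, 78 and 79 counts, or 23.6 ± 1.87 TPM.

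The nuclear-encoded core subunits of complex I, conserved in bacteria and most of them binding flavin, iron-sulphur clusters or quinone, did not share 1 level. Behind Ndufs3, Ndufs8 was at 11.98 ± 5.28 TPM and Ndufv2 at 9.69 ± 1.72 TPM (SD, n = 4), with 13, 8, 14 and 24 and with 20, 22, 25 and 31 counts in replicates 1 to 4. Both were highest in replicate 4, and on the TPM scale Ndufs8 was lowest in replicate 2 and Ndufv2 in replicate 3. The flavin-binding subunit gene Ndufv1 had 2, 5, 4 and 12 counts and Ndufs7 4, 0, 3 and 4, at 1.79 ± 1.35 and 1.24 ± 0.902 TPM. Ndufs1, the largest subunit, had 12, 9, 13 and 15 counts over 8086 exonic bases, or 1.19 ± 0.213 TPM. Among these 6 in the order of levels, Ndufs3 and Ndufs8 did not overlap over the libraries, nor did Ndufv2 and Ndufv1, while the other neighbours did.

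Further accessory genes of complex I followed in a narrow band. Ndufb11 was at 15.6 ± 5.95 TPM, Ndufa6 at 15.2 ± 6.47 TPM and Ndufs6 at 14.7 ± 4.12 TPM (SD, n = 4). Their SDs cover the differences between them. Replicate 3 was far below the others for Ndufa5, with 13, 11, 1 and 12 counts, for Ndufa12, with 11, 4, 0 and 7, and for Ndufc2, with 7, 11, 1 and 5. At the lower end, Ndufb4 had 1 count, in replicate 2, and Ndufb5 had 7, 5, 1 and 11. For Ndufb4, 18.3% of the 50-base words of its transcripts also stand in transcripts of other genes, most of them in Ndufb4c.

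Complex III had the narrowest range of mean levels of the 4 complexes. Its 8 genes ran from 3.27 to 20.3 TPM in mean level, with a median of 5.23 ± 1.26 TPM (SD, n = 4). Uqcrh, the hinge protein gene beside cytochrome c1, was highest with 27, 34, 19 and 45 counts in replicates 1 to 4, or 20.3 ± 7.76 TPM. Uqcrb, whose product binds near the quinone site, was at 10.3 ± 5.25 TPM and Uqcr10 at 9.91 ± 3.73 TPM (SD, n = 4). Uqcrh was lowest in replicate 3, as were Uqcrb and Uqcr10. Uqcr11 had 4 counts in every library, or 4.95 ± 0.572 TPM. The core protein gene Uqcrc1 had 32, 22, 9 and 26 counts and the Rieske iron-sulphur protein gene Uqcrfs1 6, 8, 4 and 7, or 4.40 ± 2.16 and 3.71 ± 1.30 TPM. The lowest, Uqcrq, had 11, 3, 5 and 11 counts. The companion of Uqcrc1 in the core, Uqcrc2, was at 5.03 ± 1.73 TPM, and it overlaps Pdzd9 on the other strand by 504 bases. The median of the complex was 5.99, 5.94, 3.35 and 5.66 TPM in replicates 1, 2, 3 and 4, with replicate 3 apart from the others.

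In complex IV, cytochrome c oxidase, Cox6c was far above the other genes. This small subunit gene (chr15:35925886-35938246) had 242, 217, 231 and 252 counts in replicates 1, 2, 3 and 4, or 52.3 ± 6.38 TPM (SD, n = 4). Its level was above that of each other complex IV gene in every library. Next were Cox4i2 at 20.2 ± 3.34 TPM, Cox6b1 at 14.2 ± 0.665 TPM and Cox7b at 11.6 ± 2.08 TPM. Cox5a, which overlaps the noncoding Gm26631 by 269 bases, was at 2.79 ± 1.82 TPM with 6, 13, 7 and 3 counts. Replicate 2 was highest for Cox5a and replicate 4 lowest. Cox5b, for the zinc-binding subunit, had 18, 13, 8 and 20 counts and Cox7c 15, 2, 11 and 13. Cox7a2l, whose product helps join complexes III and IV, had 3, 4, 0 and 3.

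Several complex IV subunits come as a broad isoform and an isoform known from particular tissues such as heart, skeletal muscle, lung or testis. The hypoxia-linked isoform Cox4i2 had 15, 20, 22 and 24 counts in replicates 1 to 4, and the broad Cox4i1 had 19, 28, 7 and 19. Per length, Cox4i2 was at 16.3, 22.0, 18.7 and 23.7 TPM and Cox4i1 at 10.5, 15.7, 3.02 and 9.56 TPM, so the tissue isoform was higher in 4 of 4 libraries. The difference of log2(TPM + 1) was 1.14 ± 0.83 (SD, n = 4), and without length scaling it was 0.24, since the 2 genes had 81 and 73 counts in all. Leaving out 1 library moved the difference between 0.76 and 1.37. Cox4i1 has an opposite exon and Cox4i2 has none.

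The muscle isoform Cox7a1 and the broad Cox7a2 did not separate. Cox7a1 had 5, 7, 11 and 3 counts and Cox7a2 12, 5, 6 and 9, or 9.37 ± 4.08 and 6.79 ± 3.08 TPM (SD, n = 4). Each was higher in 2 of 4 libraries. Without length scaling the mean difference of log2 values turned from 0.40 to -0.28 in favour of Cox7a2. The other pairs leaned to the broad isoform. Cox6b1 was at 14.2 ± 0.665 TPM and the testis isoform Cox6b2 at 0.629 ± 0.856 TPM, higher for Cox6b1 in 4 of 4 libraries. Cox6a1 had 13, 2, 6 and 7 counts and the muscle isoform Cox6a2 had 1 count, in replicate 2. Cox7b had 16, 18, 16 and 21 counts while Cox7b2 had none in any library, so Cox7b was at least 10.6-fold higher if the 0 of Cox7b2 is read as up to 3 counts over the 4 libraries together. Cox8a had 6, 7, 0 and 12 counts, Cox8b had 1, 0, 3 and 0, and Cox8c had none. Replicate 3 had no Cox8a count and the most Cox8b counts. Ndufa4 was at 9.00 ± 3.77 TPM and its relative Ndufa4l2 at 4.40 ± 1.63 TPM, with Ndufa4 higher in 3 of 4 libraries.

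**Figure D2:**
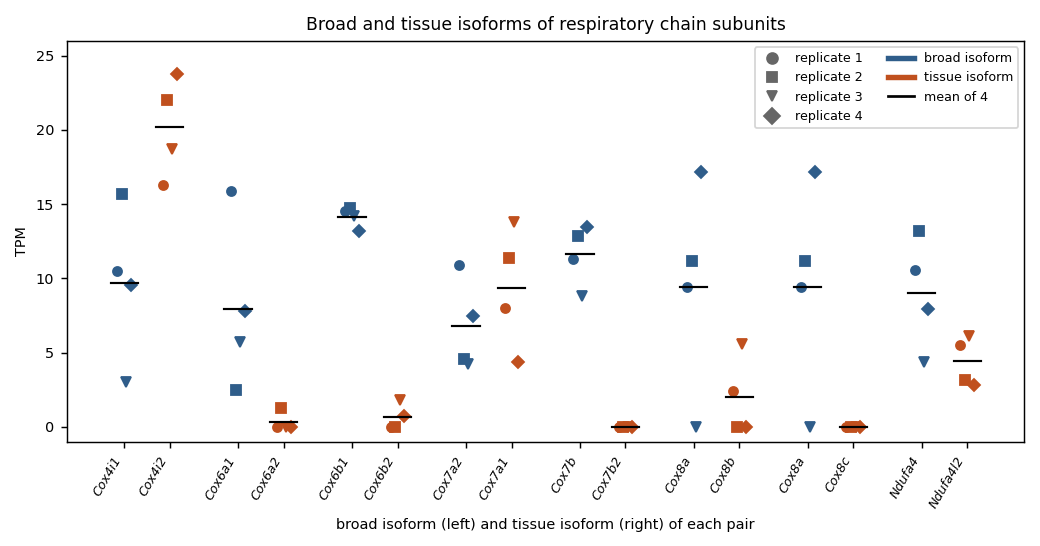
For each pair, the broad isoform is on the left in blue and the tissue isoform on the right in orange. The y axis is TPM, marker shapes give the libraries and black bars the means of 4. Cox4i2 lies above Cox4i1 in all 4 libraries, Cox7a1 and Cox7a2 overlap, and the tissue isoforms Cox6a2, Cox6b2, Cox7b2 and Cox8c lie at or near 0.

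Complex V had both the highest member and the lowest one with any count. Atp5f1 (chr3:105942698-105960099) had 1650, 1670, 2057 and 1933 counts in replicates 1, 2, 3 and 4, or 350.0 ± 13.6 TPM (SD, n = 4). Its spread between libraries was small beside its level. Atp5j, the gene for coupling factor 6 of the stalk (chr16:84827866-84835625), had 322, 329, 372 and 420 counts, or 90.9 ± 10.4 TPM. Atp5d, for the delta subunit of the central stalk, had 62, 44, 50 and 83 counts, or 24.6 ± 7.41 TPM. These 3 genes have an exon on the other strand, opposite Wdr77 by 337, Gabpa by 397 and Cbarp by 68 bases.

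The catalytic core was lower than the stalk genes Atp5f1 and Atp5j in mean level. It was higher than the stalk genes Atp5h and Atp5o, at 10.03 ± 5.46 and 5.65 ± 2.10 TPM (SD, n = 4). Atp5b, for the catalytic beta subunit, had 108, 116, 83 and 110 counts, or 19.7 ± 4.65 TPM, and Atp5a1, for the alpha subunit, 77, 62, 61 and 100, or 19.02 ± 5.09 TPM (SD, n = 4). Both were lowest in replicate 3 on the TPM scale, and they did not differ beyond their spread. Atp5k, for the small membrane subunit e, was at 22.8 ± 5.75 TPM with 14, 17, 16 and 24 counts. In contrast, the 3 genes that encode the same subunit c of the rotor ring were at 8.73 ± 3.59 TPM for Atp5g3, 1.42 ± 0.459 TPM for Atp5g2 and 0.568 ± 0.131 TPM for Atp5g1. Atp5g2 shares 36.7% of its 50-base words with transcripts of other genes, the largest share of any member. Atp5l, for subunit g, had 0, 1, 0 and 1 counts over 6443 exonic bases.

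The remaining genes of complex V lay between these ends. Atp5c1, for the gamma subunit that turns inside the catalytic head, had 29, 30, 18 and 30 counts in replicates 1 to 4, or 11.3 ± 3.38 TPM (SD, n = 4). Atp5h, for stalk subunit d, had 20, 10, 12 and 32 counts, or 10.03 ± 5.46 TPM. Replicate 3 was lowest for Atp5c1, and the libraries spread widely for Atp5h. Atp5o, for the stalk subunit that confers oligomycin sensitivity, had 20, 16, 9 and 18 counts, or 5.65 ± 2.10 TPM. The gene model of Atp5o in the tables runs from base 91684398 to 91931687 of chromosome 16, and it also overlaps D430001F17Rik, a noncoding gene with 1742, 1577, 1924 and 1388 counts. Atp5mpl, a small proteolipid gene, had 4, 9, 0 and 8 counts, and Atp5s had 1, 1, 0 and 0.

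Paralogs and pseudogenes can take or share reads. Of the 80 members, 41 had no 50-base word in transcripts of genes elsewhere in GENCODE M21, 28 had some but under 10%, and 11 had 10% or more. Their median levels were 6.67, 6.57 and 3.44 TPM. For Atp5f1 the share was 8.58%, with Gm12231, and for Ndufs3 16.1%. How multi-mapping reads were handled is not recorded in the headers, and the 11 genes are uncertain: Atp5g1, Atp5g2, Atp5h, Cox5b, Cox7a2l, Cox7c, Ndufa12, Ndufb4, Ndufs3, Ndufs5 and Uqcrb.

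Members with an opposite exon were higher on the mean log scale in every library, while the order of the medians differed between libraries. The mean of log2(TPM + 1) was 3.32, 3.41, 2.92 and 3.39 in replicates 1, 2, 3 and 4 for the 23 members with an opposite exon, and 2.79, 2.57, 2.02 and 2.81 for the 57 without. The difference was 0.71 ± 0.19 (SD, n = 4), higher with an opposite exon in 4 of 4 libraries. Without length scaling, by CPM, it was 1.16. With 4 libraries an exact two-sided test cannot reach p = 0.05. The medians were 5.48, 6.38, 3.69 and 7.63 TPM with an opposite exon and 7.96, 5.18, 3.45 and 7.43 TPM without. The median was higher in replicates 2, 3 and 4 with an opposite exon and in replicate 1 without. Over the libraries these medians had a mean of 5.79 ± 1.66 TPM with and 6.01 ± 2.09 TPM without (SD, n = 4). Over all protein-coding nuclear genes the mean of log2(TPM + 1) was 2.22 ± 0.07 with an opposite exon and 0.62 ± 0.06 without (SD, n = 4). Within complexes the mean over libraries was higher with an opposite exon in each, by the most in complex V, at 4.47 against 2.77, where Atp5f1, Atp5j and Atp5d lie.

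**Figure D3:**
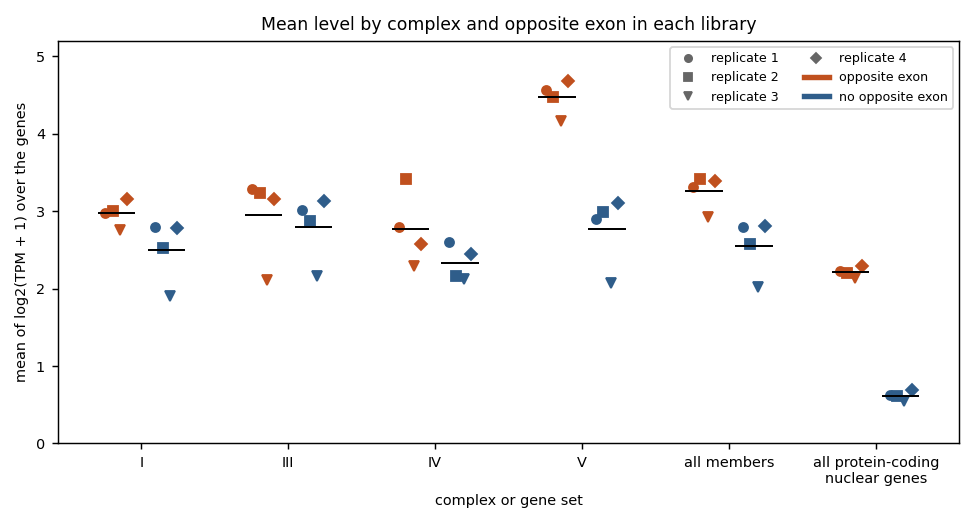
Each point is the mean of log2(TPM + 1) over a group of genes in 1 library, for each complex, all members and all protein-coding nuclear genes. Orange is with and blue without an opposite exon, and black bars are means of 4 libraries. Members stand above all protein-coding nuclear genes in both classes, and replicate 3 (triangles) is the lowest point in each group.

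In most pairs the gene on the other strand had the higher level. Set against the partner with the longest exon overlap, the partner was higher in all 4 libraries in 16 of 23 pairs, the member in 4, and neither in 3. In 1 of these 3, Cox6a2 and Itgad, a single count was found in the pair. The 27 partner genes together had 79995 counts, against 14710 for all 80 members. Partner and member start at neighbouring 5′ ends in 12 pairs, meet at their 3′ ends in 8, and lie inside each other in the remaining 3. The partner was higher in all libraries in 9 of the 12 and in 5 of the 8. Such counts were not made over all genes with an opposite exon, so whether members differ from them was not tested. Member and partner levels are levels on the counted strand, and whether that is the strand of their transcripts was not tested. In bulk RNA, fewer cells with a transcript and less of it per cell also cannot be told apart.

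The 3 highest partner levels were those of noncoding genes. Cox5a had 6, 13, 7 and 3 counts in replicates 1 to 4 while Gm26631 had 3693, 3535, 4074 and 3650, or 1178 ± 80.0 TPM (SD, n = 4). Ndufa9, a complex I accessory gene, had 6, 9, 7 and 8 counts while 1700018A23Rik, which overlaps it by 67 bases, had 926, 995, 1396 and 1054. The ratio of mean TPM was 422 for the pair of Cox5a and 755 for the pair of Ndufa9, and no library overlapped. All 6 noncoding partners with the longest overlap were higher than their member in every library, from 55.4 to 2144 TPM in mean level. Of shorter overlaps, the noncoding D430001F17Rik was above Atp5o in every library, and Gm42890, with 1 count in all, was below Atp5f1. The other longest-overlap partners were Gm16272 opposite Ndufb2, Ino80dos opposite Ndufs1, Gm30934 opposite Atp5l and Gm15976 opposite Atp5o.

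Protein-coding partners showed both orders. Ndufb5 had 7, 5, 1 and 11 counts and Mrpl47, a mitochondrial ribosomal protein gene that shares 616 exonic bases with it, had 2385, 2311, 2926 and 2555. Ndufb6 had 3, 9, 10 and 10 counts and Smim27 had 1211, 1234, 1474 and 1377. Uqcrc2 had 13, 19, 11 and 21 counts and Pdzd9 had 2153, 2165, 2769 and 2170. In these 3 pairs the partner was 462, 96.0 and 166 times as high in mean TPM, and the overlaps were 616, 257 and 504 bases. Cox4i1 stood opposite Emc8, a subunit gene of the membrane protein insertion complex, which had 1987, 1945, 2499 and 1751 counts.

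Members above their partner in every library included Atp5f1, Cox6c and Ndufa2. Wdr77, a gene for a partner protein of the methyltransferase PRMT5, had 3, 7, 4 and 7 counts in replicates 1 to 4 opposite Atp5f1, a log2 ratio of Wdr77 to Atp5f1 of -8.77 ± 0.61 (SD, n = 4). Vps13b had 21, 16, 30 and 16 counts opposite Cox6c, and the log2 ratio of Vps13b to Cox6c was -5.46 ± 0.44. Tmco6 had 14, 13, 7 and 12 counts opposite Ndufa2. Atp5j and Gabpa were close. Gabpa, which encodes the DNA-binding subunit of GABP, a regulator of respiratory genes, had 663, 577, 854 and 863 counts, or 102 ± 12.5 TPM, against 90.9 ± 10.4 TPM for Atp5j. The log2 ratio of Gabpa to Atp5j was 0.16 ± 0.16, with Gabpa higher in 3 of 4 libraries.

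**Figure D4:**
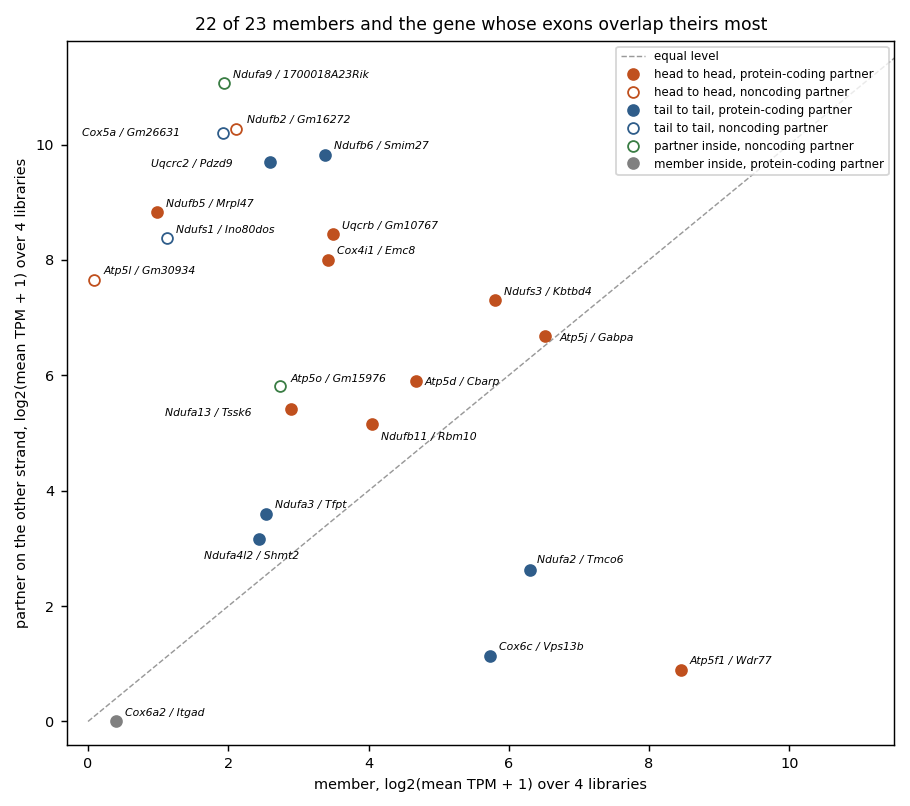
Each point is a member and its partner with the longest exon overlap. Axes are log2(mean TPM + 1) over 4 libraries, colours give the orientation, and open symbols are noncoding partners. Points above the dashed line of equal level have the higher partner, and Atp5f1, Cox6c and Ndufa2 lie below it. The plot shows 22 of the 23 pairs.

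**Figure D5:**
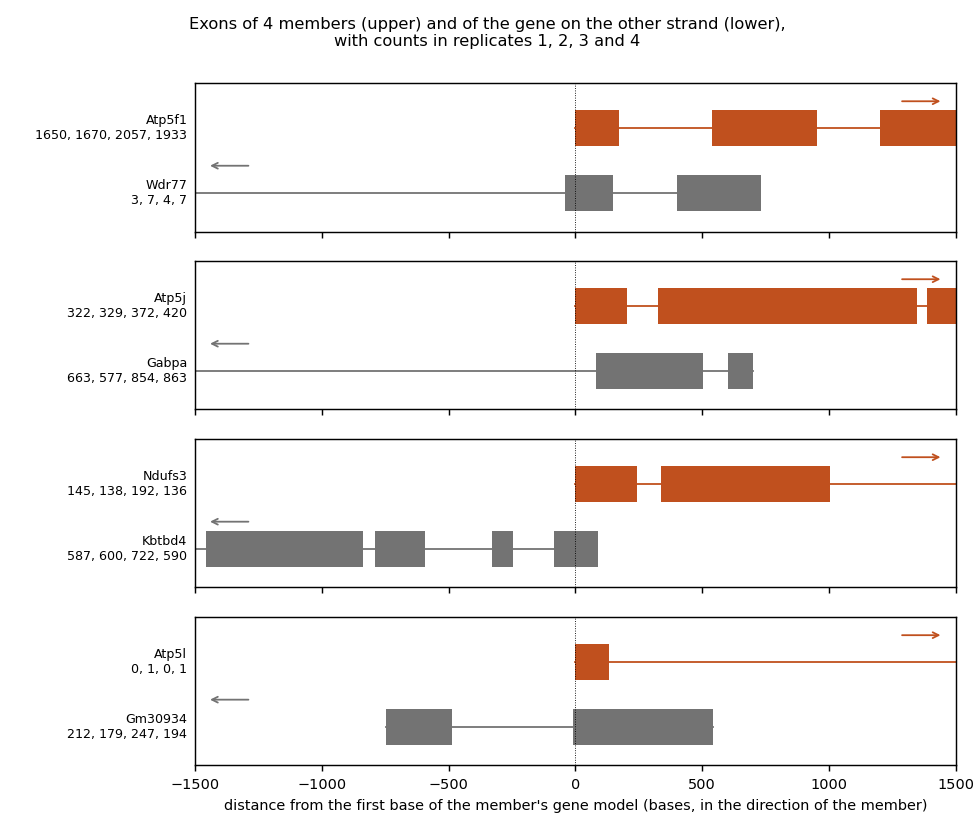
Exons of Atp5f1, Atp5j, Ndufs3 and Atp5l (orange) and of the gene on the other strand (grey) within 1500 bases of the first base of the member's gene model, with arrows for direction and counts in replicates 1 to 4. The overlaps lie at the 5′ ends, and counts are mostly with the member at the top and with Gm30934 at the bottom.

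No member passed the test of variation between replicates. Of the 80 members, 21 had enough counts for the filter and 0 were called with edgeR's quasi-likelihood fit at an adjusted p of 0.05, beside 22 of 4918 genes tested, 0.447%. Beside this background, the count of 0 is no result about the members. By unadjusted p under 0.05 there was 1 member, Ndufa10, with 25, 10, 17 and 37 counts in replicates 1, 2, 3 and 4. Its adjusted p was 0.851 (edgeR, Benjamini-Hochberg). DESeq2 called 0 members as dispersion outliers, and limma called 0. The filter kept 7 of the 23 members with an opposite exon, 30.4%, and 14 of the 57 without, 24.6%. Over protein-coding nuclear genes it kept 40.3% with an opposite exon and 9.24% without. With no filter beyond a count in any library, 78 members were tested, 0 were called and 6 had an unadjusted p under 0.05.

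Replicate 3 was the lowest library for most members. It held the lowest TPM in 50 of the 78 members with any count, and 11 members had no count there against 6, 5 and 6 in replicates 1, 2 and 4. Where no libraries tied for the lowest value, it was lowest in 35 of 51 members with no opposite exon, 68.6%, against 49.7% of 6483 protein-coding nuclear genes of that kind. With an opposite exon the shares were 15 of 21 members, 71.4%, and 42.3% of 3428 genes. Members without an opposite exon took 0.0490, 0.0439, 0.0291 and 0.0527% of the counts in replicates 1 to 4. Scaled by TMM, replicate 3 was lowest in 45 members, and scaled over protein-coding nuclear genes also in 45. CT010467.1 was at 9.40% in replicate 3, and genes with no gene opposite took 6.71, 6.30, 5.10 and 8.09% of the counts of replicates 1 to 4. Without CT010467.1 in the totals, replicate 3 was still lowest in 46 members. The part of the genes with no gene opposite was not tested. Between pairs of libraries, chi-square per degree of freedom over members was 1.03 for replicates 1 and 4 and from 2.64 to 3.32 for pairs with replicate 3. It was 1.35 for replicates 1 and 2 and 1.57 for replicates 2 and 4. Over all genes, CT010467.1 among them, it was higher, at 3.52 for replicates 1 and 4. Replicates 1 and 2 were at 6.70 and replicates 2 and 4 at 7.78. For pairs with replicate 3 it was then from 8.12 to 18.5. The value also grows with the counts per gene, so it does not show whether members were steadier.

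Other genes of oxidative metabolism were mostly low on the counted strand as well. All 4 complex II genes had counts in every library, with Sdha at 6.13 ± 1.78 TPM, Sdhb at 4.64 ± 1.46 TPM and Sdhd at 3.52 ± 2.00 TPM (SD, n = 4). All 14 genes of the tricarboxylic acid cycle did, among them Idh3b at 8.09 ± 2.30 TPM and Mdh2 at 5.40 ± 2.12 TPM. In a list of 6 further subunit genes 5 did, with Usmg5 at 24.3 ± 15.8 TPM and Cyc1, cytochrome c1, at 10.6 ± 3.00 TPM. The exception was Atp5mpl, which is also a member.

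Of 48 assembly factor genes, 31 had counts in every library and Pet117 had none in any. The 3 highest were Cox20 at 1219 ± 128 TPM, Surf1 at 398 ± 24.6 TPM and Coa6 at 255 ± 26.1 TPM (SD, n = 4), with Cox20 and Surf1 above every member and Coa6 above every member but Atp5f1. Each of these 3, which help build complex IV, has an opposite exon, with Hnrnpu, Surf2 and Tarbp1. The median of the 48 was 1.395 TPM. Of 12 regulators of respiratory genes 10 had counts in every library, led by Gabpa, by Pprc1 at 28.8 ± 6.31 TPM and by Yy1 at 27.2 ± 12.01 TPM, and Ppargc1a had none. None of the genes tested in these lists passed the variation test, with 1 tested for complex II, 7 for the cycle, 1 further subunit gene, 10 assembly factors and 6 regulators.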

How the data were processed

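Total RNA-seq of 4 T-helper 2 libraries was analysed. The authors deposited raw counts per gene with gene lengths, made with featureCounts 1.4.6-p4 and GENCODE M13 (build mm10 per the labels), with strand option 1, paired reads and both ends aligned, per the file headers. The headers name 16 hours, a time the labels do not give. The assay is titled total RNA-seq, but the linked protocol is named for poly(A) RNA. Which aligner was used was not given in the sources used here. Libraries held 1688658 to 2222583 counts. A 0 over all 4 libraries was read as up to 3 counts in all.

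TPM was computed from counts and lengths. Symbols and types came from GENCODE M21 by identifier (99.6% of 50600 matched, all 80 members), and overlaps of at least 1 base from the deposited exons with bedtools 2.31.1. By M21 exons, Ndufa11, Ndufs6 and Atp5a1 would also have one. Replicate variation was assessed in edgeR 4.0.16 with TMM factors, the filterByExpr filter and a robust quasi-likelihood fit of an intercept, as the upper tail of the quasi-dispersion with 3 residual degrees of freedom and Benjamini-Hochberg adjustment at 0.05 over all genes. It was tested on simulated data. Log values used a pseudocount of 1, which shrinks differences between low genes. DESeq2 1.42.0 and limma 3.58.1 were alternatives, with R 4.3.3, Python 3.11.15, pandas 2.3.3 and scipy 1.17.1.

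The members, lists and tests were chosen with earlier results of these data known. Named genes are, per complex, the 3 highest members with and without an opposite exon, the 7 core subunits of complex I, the isoform pairs, members at 0, members passing the test, their partners and the 3 highest of each other list. Other members and partners, CT010467.1, Gata3, Il4 and the shared 50-base words were chosen after their values were seen. Results for a few genes that this rule takes are not reported here.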

Additional observations from a re-analysis of the deposited data

Results flagged for a closer look

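Of 62 sets of 4 library values checked for a library far from the others, 3 had one. Chance flags about 1 set in 20 for continuous, normally spread values, and that rate does not hold for sets near 0. The median TPM of complex III was 3.35 in replicate 3 and from 5.66 to 5.99 in the other libraries. Emc8, opposite Cox4i1, was at 216.9 TPM in replicate 4 and from 265.7 to 270.4 TPM in the others. Cox6a2 was at 1.28 TPM in replicate 2, which is 1 count, and at 0 in the others, an order of values that the rule always flags.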

How the results depend on the processing

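No member was called under any alternative for normalisation, filter, prior or tool, or without any 1 replicate. The count over all genes, 22, was less steady. It was 3 with library totals only, 44 with a mean count of at least 10, 56 with no filter beyond a count in any library, 9 with a prior that is not robust, 53 as DESeq2 dispersion outliers, 1 with limma on log2(TPM + 1) and 11 to 21 without 1 replicate, the lowest without replicate 4. The median member level was 25.1 TPM when scaled over protein-coding nuclear genes and 10.5 TPM over members with a mean count of at least 10, and 5.48 to 6.79 TPM without 1 replicate. The difference between members with and without an opposite exon was 1.16 by CPM without length scaling and 0.65 to 0.77 without 1 replicate. It kept its sign under every alternative run. The share of counts in members was 0.38% with protein-coding nuclear counts as the total. Asking for 5 counts in every library left 45 of 66 members. The partner was higher in every library in 16 to 18 of 23 pairs under all alternatives run. Only the difference between Cox7a1 and Cox7a2 turned, to -0.28 without length scaling. The alternatives for partners, single members, isoforms, complexes and replicate 3 were chosen after seeing the data. No paired analysis was possible because the labels give 1 group. Depth limits single members, since 28 of 80 had under 5 counts in replicate 3.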
